A study of Mus musculus with 9 samples.

Results

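Sterol synthesis and fatty acid desaturation were followed in mouse neural crest cells through 8 genes chosen by name: Scd1, Scd2, Fasn, Hmgcs1, Sqle, Idi1, Insig1 and Srebf2. These genes and the wider lists below were chosen with earlier results of these data known. The 8 genes filled 9 of the 33495 rows of the table, because Hmgcs1 had 2 rows, and 7 of the 8 genes had a usable level. The neural crest is a migratory embryonic population that gives rise to bones of the face, pigment cells and much of the peripheral nervous system. The 9 samples formed 3 groups of 3, all C57BL/6 embryos at E9.5: a Mef2c neural crest conditional mutant with 10 µM endothelin-1 (ET-1), wild type with 10 µM ET-1, and wild type with phosphate-buffered saline (PBS). Embryo explants, with the head above the first branchial arch and the tail removed, recovered for 1 h in medium with serum, received ET-1 or PBS and were cultured for 12 to 15 h, and crest cells were then sorted. No group held mutant cells with PBS. The sources used here do not give the Cre driver, the alleles, the marker of the sort or whether embryos were pooled. Each group had 1 FPKM value per gene (fragments scaled by transcript length and by sequencing depth), so values carry no replicate error.

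Cells build sterols from acetyl-CoA through the mevalonate pathway, and fatty acids from acetyl-CoA through fatty acid synthase. The transcription factors SREBP-2 and SREBP-1, encoded by Srebf2 and Srebf1, turn on many of these enzymes when membrane sterol is low, and INSIG proteins hold the SREBP precursors back in the endoplasmic reticulum when sterol is plentiful. SREBPs are known to act on promoters together with the CCAAT-binding factor NF-Y. Embryos need the pathway for membranes and because hedgehog proteins carry a cholesterol group.

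Of these genes, Scd2 was called lower with ET-1 in wild-type cells, at 169 FPKM with ET-1, against 226 FPKM with PBS. Its call lay just under the threshold (Benjamini-Hochberg adjusted p = 0.0489 from the authors' deposited table) and was lost under some other settings given below. The other 6 measured members also had lower values with ET-1 than with PBS, at 0.808 to 0.948 of the PBS level, and none of these differences passed the test. In the mutant, none of the 7 differed from wild type with ET-1 by the test. Across the wider pathway, 20 of 22 sterol synthesis enzymes had a lower value with ET-1, where 47.7% of all genes tested did. In the mutant 11 of the 22 lay below wild type, where 42.8% of all genes tested did. Of the 22, 0 were called in either comparison. Of all genes tested, 0.533% were called with ET-1 and 4.94% in the mutant. Among protein-coding genes 205 of 11855 were called in the mutant.

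The series as a whole set the scale for these values. Pooled reads recovered from single-exon genes came to 46930090 for the mutant with ET-1, 19801223 in the wild-type ET-1 group and 21507311 in the PBS group. Each interval given for a ratio is the exact 95% interval of the recovered read counts. It covers counting error alone and says nothing of how embryos vary. The recovered counts of Idi1, Sqle, Insig1 and Srebf2 were even in every group, as were those of Mef2c, Pmvk, Fdps, Abcg1 and others. Such counts may be multiples of the real reads, and the intervals of these genes would then be too narrow. Calls rest on a threshold of 0.05 after Benjamini-Hochberg adjustment of the deposited p-values over all genes at 1 FPKM or more in either group. Mef2c stood at 10.1 FPKM in the mutant, 25.2 FPKM in wild type with ET-1 and 7.71 FPKM with PBS, and it was called in both comparisons (adjusted p = 6.52e-11 for the mutant and 5.44e-12 for ET-1, from the authors' deposited table). The 10 crest markers summed to 311 FPKM in the mutant, 291 FPKM in wild type with ET-1 and 200.3 FPKM with PBS. Of these, 5 were called higher with ET-1, among them Sox10 and Ets1, where 0.533% of all genes tested were called in either direction. In the mutant 1 of the 10 was called higher and 1 lower, where 4.94% of all genes tested and 205 of 11855 protein-coding genes were called. Snai2 reached at most 2.09 FPKM in any group. Of the markers of other cells with FPKM in all groups, 3 of 6 neural tube genes summed to 70.8, 73.7 and 77.8 FPKM in the same order, 4 of 5 erythroid genes to 16.9, 29.6 and 31.2 FPKM, and 4 of 4 endothelial genes to 1.83, 2.46 and 2.97 FPKM. Epithelial markers summed to 2.91, 4.09 and 5.94 FPKM (4 of 4 genes), mesoderm to 4.99, 4.42 and 3.72 FPKM (2 of 4) and cardiac to 5.98, 4.71 and 3.02 FPKM (2 of 4). The neural tube markers Sox1, Olig2 and Nkx6-1 were listed at low whole numbers or under 1 FPKM, and Afp, a yolk sac product, fell with ET-1. In group values, a different mix of sorted cells and a different amount of RNA per cell cannot be told apart, and the part of these markers in the results below was not tested.

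Promoter windows, from 250 bases before to 50 bases after the start, were found in RefSeq (GRCm38.p6) by symbol for 5 of the 8 members. Scd1, Scd2 and Sqle had no entry. The stretches below are shown because all 5 hold the NF-Y box, and because they show which members carry the sterol response motif. Capitals mark CCAAT or its complement ATTGG, TCACNCCAC for the sterol response motif, and CACGTG for the E-box, each searched on both strands. Sequences run 5′ to 3′ on the gene's own strand.
Fasn (chr11:120824582-120824657, minus strand): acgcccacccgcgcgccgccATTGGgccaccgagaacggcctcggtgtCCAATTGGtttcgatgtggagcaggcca
Idi1 (chr13:8885541-8885616, plus strand): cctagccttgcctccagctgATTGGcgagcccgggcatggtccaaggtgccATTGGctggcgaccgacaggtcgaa
Hmgcs1 (chr13:119690101-119690385, plus strand): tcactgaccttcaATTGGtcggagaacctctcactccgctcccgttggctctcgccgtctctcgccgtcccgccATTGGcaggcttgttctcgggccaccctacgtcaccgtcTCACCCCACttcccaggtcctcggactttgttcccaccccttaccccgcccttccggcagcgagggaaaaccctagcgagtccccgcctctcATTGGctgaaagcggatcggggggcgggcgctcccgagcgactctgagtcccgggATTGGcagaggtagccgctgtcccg
Insig1 (chr5:28071176-28071336, plus strand): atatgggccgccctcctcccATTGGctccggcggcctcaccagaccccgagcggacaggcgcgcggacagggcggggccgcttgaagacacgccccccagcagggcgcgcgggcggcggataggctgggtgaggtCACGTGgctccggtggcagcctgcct
Srebf2 (chr15:82147114-82147158, plus strand): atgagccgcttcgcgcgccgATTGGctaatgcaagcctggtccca

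The NF-Y box occurred in 5 of 5 member windows, against 42.3% of 17492 protein-coding genes. Hmgcs1 held 4 such boxes, Fasn 3 of which 2 overlap each other on opposite strands, Idi1 2, and Insig1 and Srebf2 1 each. The sterol response motif TCACNCCAC was found in Hmgcs1 and in none of the other 4 windows, against 1.41% of protein-coding genes. Other forms of this motif and bases outside the windows were not searched. CACGTG was found in Insig1 alone among the 5, against 8.91%. Among the 23 sterol synthesis enzymes, 18 had a window, and 16 of these held the NF-Y box. The sterol response motif was in 1 of the 18, that of Hmgcs1. GGGCGG, the SP1 box, was in 15 of the 18, against 49.2% of protein-coding genes. The MEF2 site was found in 0 of the 18 windows, against 3.27%, which says only that its letters are not within these bases. Windows that hold a motif are a description of sequence and do not show binding.

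Scd2 and Scd1 encode stearoyl-CoA desaturases, which put a double bond into saturated fatty acyl chains, and Scd2 is the form known for expression in embryos and brain in the mouse. Scd2 (ENSMUSG00000025203, chr19:44368164-44381350 in mm9) stood at 148 FPKM in the mutant with ET-1, 169 FPKM in wild type with ET-1 and 226 FPKM in wild type with PBS. It was the most abundant member in every group, at percentiles of 97.8 to 98.2 among the 17757 genes with FPKM in all groups. With ET-1 it held 0.747 of the PBS level (interval 0.733 to 0.761), a log2 fold of -0.42 on the FPKM + 1 scale used for all log2 folds here, and passed the test (Benjamini-Hochberg adjusted p = 0.0489 from the authors' deposited table). In this comparison 0.533% of 15395 genes were called in either direction and 0.143% were called lower, and Scd2 was the member called among 7 tested. It had the largest p-value of the 82 called genes. From the same p-value in the authors' deposited table, Scd2 missed the threshold when genes under 1 FPKM were kept in (adjusted p = 0.0567) and under the Benjamini-Yekutieli adjustment (adjusted p = 0.499), with 0.0382 the smallest over the alternatives. The mutant held 0.880 of the level in wild type with ET-1 (interval 0.865 to 0.896; adjusted p = 0.475 from the authors' deposited table).

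Scd1 (ENSMUSG00000037071, chr19:44468945-44482043 in mm9) stood at 40.0 FPKM in the mutant, 42.3 FPKM in wild type with ET-1 and 46.3 FPKM with PBS. Its ratio was 0.914 with ET-1 over PBS (interval 0.876 to 0.954) and 0.944 in the mutant over wild type (interval 0.909 to 0.980), and neither passed the test. Whether Scd2 responded more than Scd1 was not tested, since there were no values per sample. The 4 desaturase genes lie side by side in the order Scd3, Scd2, Scd4, Scd1, with gaps of 49.7, 26.2 and 47.7 kb. Scd3 stood at 2.54 FPKM in the mutant, 3.01 FPKM in wild type with ET-1 and 4.20 FPKM with PBS, and Scd4 at 0.390, 0.751 and 1.64 FPKM in the same order. Neither was called with ET-1, and Scd4 had an unadjusted p = 0.0363 in the authors' deposited table. Together the 4 genes summed to 191 FPKM in the mutant, 215 FPKM in wild type with ET-1 and 278 FPKM with PBS. Scd2 made up 77.6% of that sum in the mutant, 78.5% in wild type with ET-1 and 81.2% with PBS. Of the 50-base words in the transcripts of Scd2 and Scd1, 3.97% and 4.56% occur in transcripts of other genes, so reads of these stretches could have been split between copies.

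**Figure D1:**
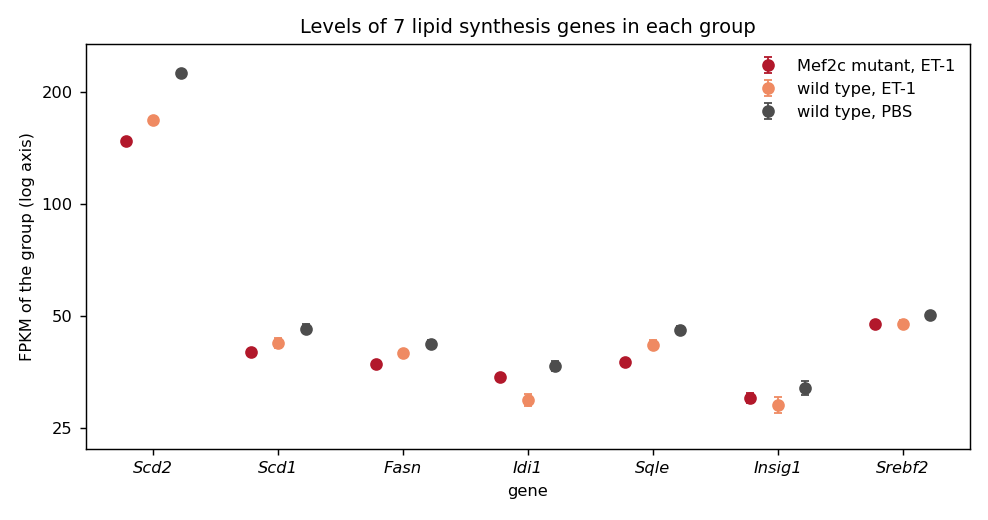
Levels of the 7 measured genes on a log axis in FPKM, with the Mef2c mutant with ET-1 at the left, wild type with ET-1 in the middle and wild type with PBS at the right of each gene; bars are 95% counting intervals of the group value. Scd2 lies far above the other 6 genes, and for each gene the PBS point is the highest of the 3.

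**Figure D2:**
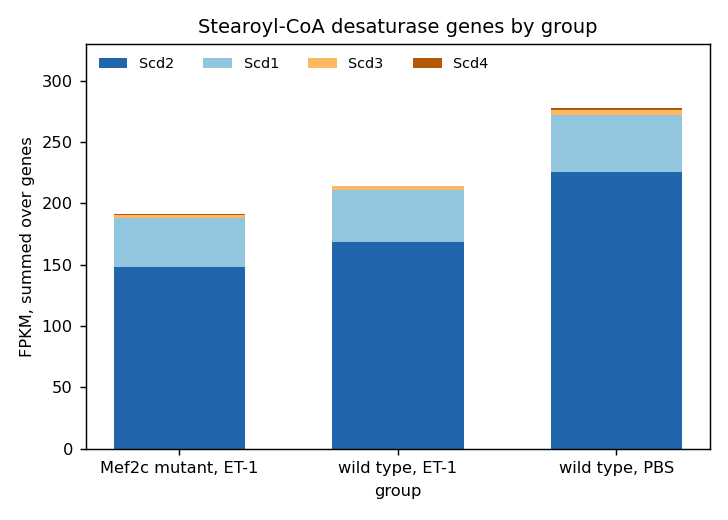
Summed FPKM of the 4 stearoyl-CoA desaturase genes in each group, stacked by gene, with 1 value per group and no replicate error. The bars reach 191 FPKM in the mutant with ET-1, 215 FPKM in wild type with ET-1 and 278 FPKM in wild type with PBS, and Scd2 fills most of each bar.

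Fasn, the fatty acid synthase that makes palmitate, was measured close to Scd1 in level. Fasn (ENSMUSG00000025153, chr11:120667254-120685492 in mm9) stood at 37.2 FPKM in the mutant, 39.7 FPKM in wild type with ET-1 and 42.2 FPKM with PBS. The ratio was 0.942 with ET-1 over PBS (interval 0.914 to 0.971) and 0.936 in the mutant over wild type (interval 0.912 to 0.962), with neither called. None of its 50-base words occur in transcripts of other genes.

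Idi1 and Sqle are the sterol pathway enzymes with a level among the members. Idi1, which turns isopentenyl diphosphate into dimethylallyl diphosphate (ENSMUSG00000058258, chr13:8885214-8891614 in mm9), stood at 34.2 FPKM in the mutant, 29.7 FPKM in wild type with ET-1 and 36.8 FPKM with PBS. It was the member nearest to Scd2 with ET-1, at 0.808 of the PBS level (interval 0.770 to 0.848; unadjusted p = 0.0538 in the authors' deposited table, adjusted p = 1). In the mutant Idi1 was at 1.15 of wild type (interval 1.10 to 1.20; adjusted p = 0.914 from the authors' deposited table). Reads of Idi1 are the least certain here, since 25.3% of its 50-base words occur in 5 other genes. Sqle, the squalene monooxygenase (ENSMUSG00000022351, chr15:59146667-59162747 in mm9), stood at 37.7 FPKM in the mutant, 41.9 FPKM in wild type with ET-1 and 46.0 FPKM with PBS. Its ratios were 0.913 with ET-1 over PBS (interval 0.877 to 0.949) and 0.899 in the mutant over wild type (interval 0.868 to 0.932), neither past the test.

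Hmgcs1, the cytosolic synthase that makes HMG-CoA, was listed at 0 in all 3 groups in both of its rows (ENSMUSG00000079828 and ENSMUSG00000079301). Both rows lie on the unplaced contig chr13_random, with the same span of 17797 bases each. All 292 rows on unplaced contigs were at 0 in every group, against 27.7% of the 33203 other rows. Hmgcs1 is therefore given no level, and its 0 is not read as absence of the transcript.

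The regulators are the SREBP-2 gene Srebf2 and the sterol sensor gene Insig1, whose product retains SREBP precursors. Srebf2 (ENSMUSG00000022463, chr15:81977696-82035806 in mm9) stood at 47.5 FPKM in the mutant, 47.7 FPKM in wild type with ET-1 and 50.3 FPKM with PBS. The ratio was 0.948 with ET-1 over PBS (interval 0.916 to 0.981) and 0.997 in the mutant over wild type (interval 0.967 to 1.03). Insig1 (ENSMUSG00000045294, chr5:28397907-28405201 in mm9) stood at 30.1 FPKM in the mutant, 28.9 FPKM in wild type with ET-1 and 32.1 FPKM with PBS, with ratios of 0.902 (interval 0.843 to 0.966) and 1.04 (interval 0.981 to 1.11). None of these was called. In the mutant comparison the deposited p-values centred on a ratio above 1: the 547 genes at 5 FPKM or more in either group with a deposited p of at least 0.95 had a median ratio of 1.045 in the mutant, against 1.01 for the 663 such genes with ET-1. Insig1 lay at that centre (p = 0.988 in the authors' deposited table), and its direction in the mutant turned to -0.0038 on the log2 scale when folds were centred there.

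In order of level, the members ran Scd2, Srebf2, Scd1, Sqle, Fasn, Idi1 and Insig1 in each of the 3 groups. Counting intervals of neighbours in that order overlapped for Sqle and Fasn in the mutant, for Scd1 and Sqle in wild type with ET-1 and with PBS, and for Idi1 and Insig1 in wild type with ET-1. The intervals of the other neighbours did not overlap, though those of Idi1, Sqle, Insig1 and Srebf2 may be too narrow, as said above. Percentiles of the 7 ran from 85.7 to 98.2 among genes with FPKM in every group. Over the 7 the median log2 fold was -0.13 with ET-1 over PBS, where all 15395 genes tested had a median of 0.01, and -0.08 in the mutant over wild type, where all 15459 had 0.05. The mutant median was -0.13 with FPKM rescaled to a median log2 ratio of 0, and -0.14 when folds were centred on genes with a deposited p of at least 0.95. In the mutant 0 of the 7 were called, where 4.94% of all genes tested were called and 3.75% were called lower, and 0 of the 7 had an unadjusted p under 0.05. Among protein-coding genes alone, which the 7 are, 205 of 11855 were called in the mutant and 122 of these were lower, a smaller share. Mutant cells with ET-1 set beside wild-type cells with PBS, which differ in both genotype and treatment and were given no test, had ratios from 0.657 for Scd2 (interval 0.647 to 0.668) to 0.945 for Srebf2 (interval 0.918 to 0.972).

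The list of sterol synthesis enzymes, which includes Hmgcs1, Idi1 and Sqle, had lower values with ET-1 in most cases. The list was chosen with earlier results of these data known, so its counts and medians are a description and not a test. Of 23 listed, 22 had a level, and 20 of the 22 had a log2 fold below 0 with ET-1, where 47.7% of all genes tested did, and 44.9% of protein-coding genes. The median log2 fold of the 22 was -0.25. By the test 0 were called, and 5 had an unadjusted p under 0.05 in the authors' deposited table, all 5 with lower values; of all genes tested 4.51% had such a p and 2.01% had it with a lower value. Acat2, the acetyl-CoA acetyltransferase of the opening step, was the most abundant of the 22 with PBS, at 48.2 FPKM in the mutant, 48.5 FPKM in wild type with ET-1 and 62.2 FPKM with PBS. Its ratio with ET-1 was 0.780 (interval 0.736 to 0.827; adjusted p = 0.727 from the authors' deposited table).

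The steps from squalene synthase onward are specific to sterols, and 12 of 13 had lower values with ET-1. Sc4mol, the sterol C4-methyl oxidase, had the lowest ratio of these steps with ET-1 at 0.751 (interval 0.706 to 0.798; adjusted p = 0.463 from the authors' deposited table), with 13.5 FPKM in the mutant, 14.4 FPKM in wild type with ET-1 and 19.2 FPKM with PBS. Fdft1, the squalene synthase, stood at 37.6 FPKM in the mutant, 29.5 FPKM in wild type with ET-1 and 38.6 FPKM with PBS, and Lss, the lanosterol synthase, at 14.6, 15.8 and 20.4 FPKM in the same order. Cyp51, the lanosterol demethylase, was the most abundant of these steps in the mutant, at 39.2 FPKM in the mutant, 35.0 FPKM in wild type with ET-1 and 41.4 FPKM with PBS. The enzymes whose values were higher with ET-1 were Pmvk, a mevalonate pathway kinase, at 1.17 of PBS (interval 1.02 to 1.35), and Ebp, the sterol isomerase, at 1.16 (interval 0.897 to 1.49). The interval of Pmvk may be too narrow, since its recovered counts were even in every group.

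In the mutant the sterol enzymes lay on both sides of wild type. Of the 22, 11 had a log2 fold below 0, where 42.8% of all genes tested did and 38.5% of protein-coding genes. By the test 0 were called, and 0 had an unadjusted p under 0.05, against 11.6% of all genes tested, a share not computed for protein-coding genes alone. The median of the 22 was 0.05, against 0.06 over protein-coding genes. The sign of the median of the 22 was not stable, at -0.0077 for genes at 5 FPKM or more and -0.0071 when folds were centred on genes with a deposited p of at least 0.95. Fdps, the farnesyl diphosphate synthase, was at 1.36 of wild type (adjusted p = 0.507 from the authors' deposited table), with 34.8 FPKM in the mutant and 25.6 FPKM in wild type with ET-1. Fdft1 was at 1.28 of wild type (interval 1.22 to 1.33) and Mvd, the mevalonate diphosphate decarboxylase, at 0.793 (interval 0.708 to 0.888), neither called. The 2 comparisons share the wild-type group with ET-1, so a low value there lowers the ratio over PBS and raises the ratio of the mutant.

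**Figure D3:**
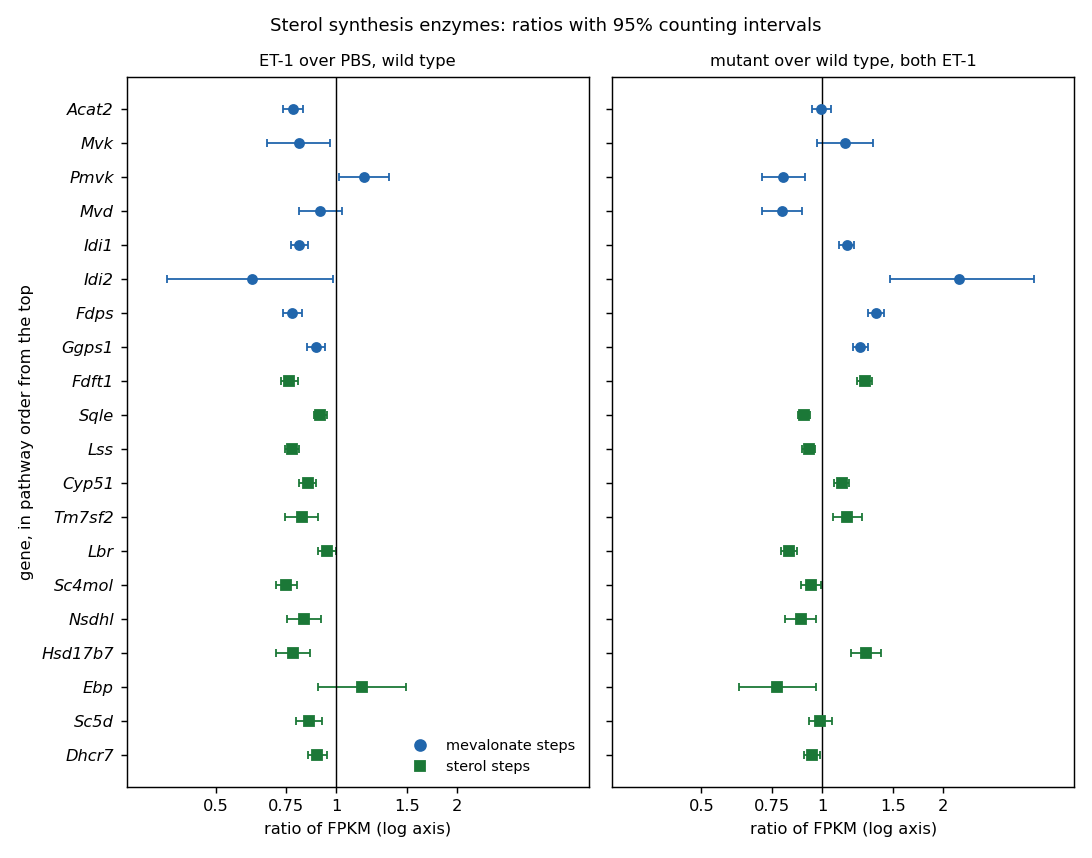
Ratios of FPKM for 20 of the sterol synthesis enzymes in pathway order, on log axes, with ET-1 over PBS in wild type in the left panel and the mutant over wild type, both with ET-1, in the right panel; bars are 95% counting intervals. In the left panel 18 of 20 points lie below 1, and in the right panel 11 of 20 do.

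Around the pathway, 84 listed lipid genes were tested with ET-1, and Scd2 was the 1 called, where 0.533% of all genes tested were. Among them 11, Scd2 included, had an unadjusted p under 0.05 in the authors' deposited table, all 11 with lower values, where 4.51% of all genes tested had such a p and 2.01% had it with a lower value. Of 7 SREBP pathway genes 4 had lower values with ET-1, and Srebf1 stood at 8.60 FPKM in the mutant, 10.1 FPKM in wild type with ET-1 and 13.0 FPKM with PBS (unadjusted p = 0.0301 for ET-1 in the authors' deposited table). Of 7 tested genes of cholesterol uptake and transport 5 had lower values. Npc2, which carries cholesterol in lysosomes, led that list at 90.0 FPKM in the mutant, 93.4 FPKM in wild type with ET-1 and 104 FPKM with PBS. Tmem97, which had the lowest ratio with ET-1 among the 7 and was chosen after its values were seen, stood at 16.1 FPKM in the mutant, 11.6 FPKM in wild type with ET-1 and 17.4 FPKM with PBS. Neither list had a called gene in either comparison.

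Fatty acid synthesis and its supply enzymes had a median log2 fold of -0.08 with ET-1 over 7 tested genes, with Acly, the ATP citrate lyase and most abundant of them, at 48.9 FPKM in the mutant, 41.7 FPKM in wild type with ET-1 and 45.2 FPKM with PBS. In the list of desaturases and elongation enzymes 9 of 15 tested genes had lower values with ET-1, with a median of -0.12. Tecr, an enoyl-CoA reductase of fatty acid elongation, was at 218 FPKM in the mutant, 221 FPKM in wild type with ET-1 and 211 FPKM with PBS. Fads1 and Fads2, the desaturases of polyunsaturated fatty acids, had ratios with ET-1 of 0.940 (interval 0.904 to 0.976) and 0.873 (interval 0.828 to 0.920). Fatty acid oxidation had a median of 0.05 with 4 of 10 tested genes below 0, and glycerolipid genes a median of -0.0032 with 5 of 8 below 0. Hadha, of the mitochondrial trifunctional protein, led the oxidation list at 16.4 FPKM in the mutant, 14.8 FPKM in wild type with ET-1 and 15.2 FPKM with PBS. Dgat1, which makes triglyceride, led the glycerolipid list at 15.6 FPKM in the mutant, 12.2 FPKM in wild type with ET-1 and 12.2 FPKM with PBS. Among 8 tested genes of liver X receptors, sterol efflux and esterification 0 were called with ET-1 and 5 lay below 0. Soat1, which esterifies cholesterol, led that list at 17.7 FPKM in the mutant, 20.4 FPKM in wild type with ET-1 and 19.7 FPKM with PBS.

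Of 83 listed lipid genes tested in the mutant 1 was called, where 4.94% of all genes tested were called and 3.75% were called lower. Among protein-coding genes alone the share was smaller, with 205 of 11855 called and 122 of these lower. Abcg1, a transporter that exports sterol from cells, was lower in the mutant at 0.603 FPKM, against 1.93 FPKM in wild type with ET-1; with PBS wild type held 2.08 FPKM. The ratio of the FPKM values was 0.313 (interval 0.263 to 0.372), and the Benjamini-Hochberg adjusted p = 0.00602 from the authors' deposited table. At such low levels the log2 fold depended on the pseudocount, at -0.87 with 1 added to each FPKM and -1.53 with 0.1 added. From the same table its adjusted p over the authors' p-values ran up to 0.0616, with the Benjamini-Yekutieli adjustment, which ended the call. Cd68, a macrophage marker, was higher in the mutant, at 12.4 FPKM against 5.54 FPKM in wild type with ET-1, and Csf1r, another macrophage marker, had 0.834 FPKM in the mutant against 0.413 FPKM in wild type with ET-1, a ratio of 2.02 (interval 1.54 to 2.68) at levels too low to be tested. The macrophage genes Ptprc and Lyz2 were at or near 0. The 2 of 4 macrophage markers with FPKM summed to 13.2 FPKM in the mutant, 5.96 FPKM in wild type with ET-1 and 6.22 FPKM with PBS, and the part of these markers in the Abcg1 result was not tested. Abca1, a related transporter of cholesterol, stood at 7.53 FPKM in the mutant, 6.71 FPKM in wild type with ET-1 and 8.60 FPKM with PBS and was not called.

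**Figure D4:**
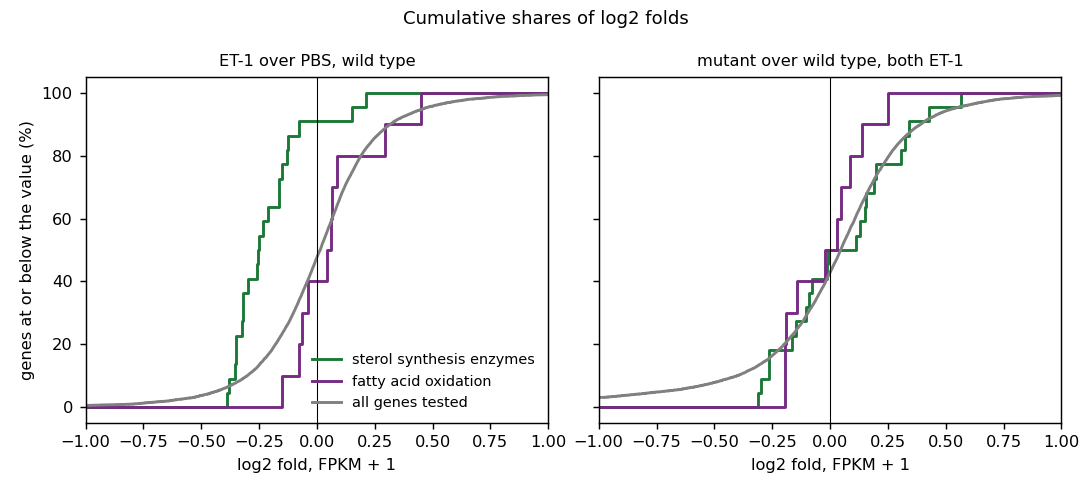
Cumulative share of genes, in percent, against log2 fold of FPKM + 1, with ET-1 over PBS in wild type at the left and the mutant over wild type, both with ET-1, at the right; lines are 22 sterol synthesis enzymes, 10 fatty acid oxidation genes and all genes tested. With ET-1 the median of the sterol line, -0.25, lies left of the median of all genes, 0.01, and in the mutant the medians of these lines are both 0.05.

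The genes whose pair of log2 folds lay nearest to the median pair of the 7 members were Mib1, Stx6, Ergic3, Pak4 and Neurog2, at Euclidean distances of 0.0087 to 0.0129 over 3 groups. Neurog2 is also on the list of neural tube markers. They were taken from 6260 genes with at least 10 FPKM in every group.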

How the data were processed

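RNA of sorted neural crest cells was sequenced in 9 samples. The submitters' processing notes name TopHat 1.3.1, Cufflinks 1.3.0, Cuffdiff and the build mm9. The authors deposited, per the file headers, 1 FPKM value for each group and a p-value for each comparison. The sources used here give neither the test behind it nor the way samples of a group were merged. A second deposited table gives a normalized induction ratio (fold) made by the authors for genes called induced. There were 0 columns of other samples. Members and lists were chosen with earlier results of these data known.

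In 15639 of 33495 rows both wild-type values were whole numbers with a p of 1; these looked like reads and were not used as FPKM. The deposited p-values were adjusted across all genes (Benjamini-Hochberg, at least 1 FPKM in either group). Log2 folds used FPKM + 1, which understates the change of low genes. Pooled reads were recovered from single-exon genes (90.0% to 90.2% of 1868 came out within 0.02 of a whole number in each group). For listed genes they were recovered from the model length near the GENCODE M21 exon length. Whole reads came out for 122 of 122 listed genes. Any multiple of the true length also gives whole reads, so this does not check the counts. Recovered lengths matched stop minus start, so starts are printed with 1 added. Intervals treat reads as independent, which PCR copies are not. Named genes were the members, list genes that passed the test or led their list in level, Mef2c and the 5 most alike; the other list genes named were added after their values were seen. Some list genes enter the counts, but their own values are not reported here. Protein sequences were not used here. The adjustment, the read recovery and the intervals were tested on simulated data with Python 3.11.15, NumPy 2.4.6, pandas 2.3.3 and SciPy 1.17.1. Simulated model lengths stayed nearer to the annotated length than the search range did, so that test could not show multiples of the real counts.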

Additional observations from a re-analysis of the deposited data

How the results depend on the processing

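The log2 fold of Scd2, -0.42, is not altered by a filter or an adjustment. Its call was lost with no filter on low values (adjusted p = 0.0567) and under the Benjamini-Yekutieli adjustment (adjusted p = 0.499), both from the authors' deposited table. The call held at 5 FPKM or more, at 0.0382, and among protein-coding genes, at 0.0471. With a fold of at least 1.5 required as well, Scd2 would not be called. Over all genes, 82 calls with ET-1 became 51 under Benjamini-Yekutieli (37 higher and 14 lower). In the mutant 763 calls among 15459 genes tested (183 higher and 580 lower) became 205 among 11855 protein-coding genes tested (83 higher and 122 lower). The members' median in the mutant moved to -0.14 when folds were centred on genes with a deposited p of at least 0.95, a choice made after seeing the data, and 6 of 7 then lay below 0. Of 98 member values under alternatives 96 kept their direction where called and their side of the threshold. Of 100 list medians 99 moved by no more than the median counting error of single genes on the list. Small medians could change sign within that margin. That of liver X receptor, efflux and esterification genes with ET-1 went from -0.079 to 0.047 at 5 FPKM or more. That of SREBP pathway genes in the mutant went from 0.039 to -0.0066 with FPKM rescaled. Both were counted as not moved. Much of the 96 was fixed beforehand. Scaling and pseudocount runs reused the adjusted p-values, and filter and adjustment runs reused the folds. A turn of direction in a gene without a call, as for Insig1, was also counted as kept. The count of sterol enzymes below 0 with ET-1 was 20 of 22 under each scaling, pseudocount and filter run other than 5 FPKM or more, where it was 18 of 19. A pseudocount cannot change a sign, and the unfiltered and protein-coding runs held the same 22 genes and folds. Only the rescaled and centred runs could therefore have changed the 20 of 22. In the mutant the median of these enzymes was 0.05 and became -0.0077 at 5 FPKM or more and -0.0071 when centred as above. No paired analysis was possible because each group has 1 value per gene and sample numbers are not shared between groups, and leaving out single samples was not run for the same reason.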

Other observations

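Some listed lipid genes had whole numbers in the wild-type groups, which looked like reads and not FPKM. Cpt1a, the liver form of the enzyme that brings fatty acids into mitochondria, was listed at 3 with ET-1 and 5 with PBS, Thrsp at 3 with ET-1 and 9 with PBS, and Elovl3 at 0 with ET-1 and 1 with PBS. The row of mir-33, a microRNA encoded within an intron of Srebf2, was listed at 2 in the mutant, 0 in wild type with ET-1 and 1 with PBS. Cpt1c, a separate gene related to Cpt1a and known from the nervous system, was measured at 10.3 FPKM in the mutant, 10.4 FPKM in wild type with ET-1 and 11.7 FPKM with PBS.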
